A study of Bos taurus with 8 samples.

Results

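The enzymes described here remove superoxide, peroxides, quinones and free heme, and 10 of their genes were chosen by name: *SOD1*, *SOD2*, *SOD3*, *CAT*, *GPX1*, *GPX3*, *NQO1*, *HMOX1*, *TXNRD1* and *PRDX1*. Of these, 9 were matched by name among the 24596 genes of the count table, and all 9 passed the filter on low counts that left 12857 genes. No row was matched to *GPX1*, and it was not analysed here. The counts come from RNA-Seq of primary bovine chondrocytes, taken from the superficial zone (SZCs) or the deep zone (DZCs) of articular cartilage, with 2 libraries from each zone. Both groups were wild-type cells from knee joints of calves aged 1 to 2 weeks, freed from microtome slices of cartilage by pronase and collagenase and then cultured for 3 days in DMEM/F12 medium with fetal bovine serum, so the values describe cultured cells and not cartilage as it was in the joint. Slices were pooled within a joint. The replicates are described as biological duplicates, but the sources used here do not say whether they came from different animals, so the p-values measure the spread between these libraries only.

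Superoxide dismutases turn superoxide into hydrogen peroxide in separate places, SOD1 mainly in the cytosol, SOD2 in mitochondria and SOD3 outside the cell, where it binds to the matrix. Catalase, glutathione peroxidases and peroxiredoxins then remove the peroxide, and thioredoxin reductase and NADPH keep the thiol systems reduced. Articular cartilage has no blood vessels and is poor in oxygen, and extracellular superoxide dismutase is known as an abundant enzyme of its matrix.

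The cells carried chondrocyte markers, and SZCs those of the superficial zone, while no list of deep zone markers was examined. All 8 chondrocyte markers examined, *COL2A1* among them, were above 3 counts in every library. They summed to 120684 and 123310 CPM in SZCs and to 485946 and 188467 CPM in DZC replicates 1 and 2. Of the 8, only *MATN3* passed between the zones, 4.13-fold higher in DZCs (edgeR exact test, FDR 0.00212). All 6 superficial zone markers, *PRG4* and *CREB5* among them, were higher in SZCs with an FDR under 0.05, although these markers were chosen with the data known. DZC replicate 1 stood apart from the other libraries. *COL2A1* took 24.5% of its counts, against 6.31% to 12.9% in the other libraries, and its TMM factor, which corrects for such differences, was 0.735, against 1.08 to 1.14. The 9 mitochondrial genes whose names begin with MT took 0.435% of its counts, against 0.806% to 1.08%, and 14683 genes had counts in it, against 15842 to 16058. The summed level of 4 fibroblast markers (*COL1A1*, *COL3A1*, *PDGFRA* and *THY1*) was 2796 CPM (TMM-scaled CPM, each library's counts divided by its effective size) in DZC replicate 1, against 10585 CPM in DZC replicate 2 and at least 12661 CPM in either SZC library. Markers of hypertrophic cartilage and bone summed to 69.2 CPM in DZC replicate 2 and to between 0.187 and 1.91 CPM elsewhere, and 5 of those 6 markers exceeded 3 counts in DZC replicate 2, against 0 of 6 in DZC replicate 1. Immune markers summed to between 8.77 and 36.4 CPM, and the hemoglobin gene *HBB* was at 0 counts in every library. The 2 adipocyte markers matched, *FABP4* and *PLIN1*, summed to 17.7 and 15.2 CPM in SZCs and to 6.78 and 5.83 CPM in DZCs. Of these, *FABP4* was 7.78-fold higher in SZCs (edgeR exact test, FDR 3.32e-05), the direction of *SOD3*, while *PLIN1* did not pass (FDR 1 in the same edgeR test).

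The comparison of the zones asks which of these enzymes are made at different levels by superficial and deep chondrocytes. *SOD3*, the secreted dismutase, was 8.06-fold higher in SZCs. Alone among the 9 enzymes it passed the FDR threshold of 0.05 under the exact test of edgeR, which called 2.23% of all tested genes higher in SZCs, 0.7% higher in DZCs and 2.93% in either direction. *GPX3*, the secreted glutathione peroxidase, followed at 3.41-fold but did not pass. The other 7 enzymes, all of which act mainly inside cells, had log2 fold changes of SZCs over DZCs between -0.28 and 0.04. Bulk RNA cannot tell fewer expressing cells from less RNA per cell, and this holds for each value given here.

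**Figure D1:**
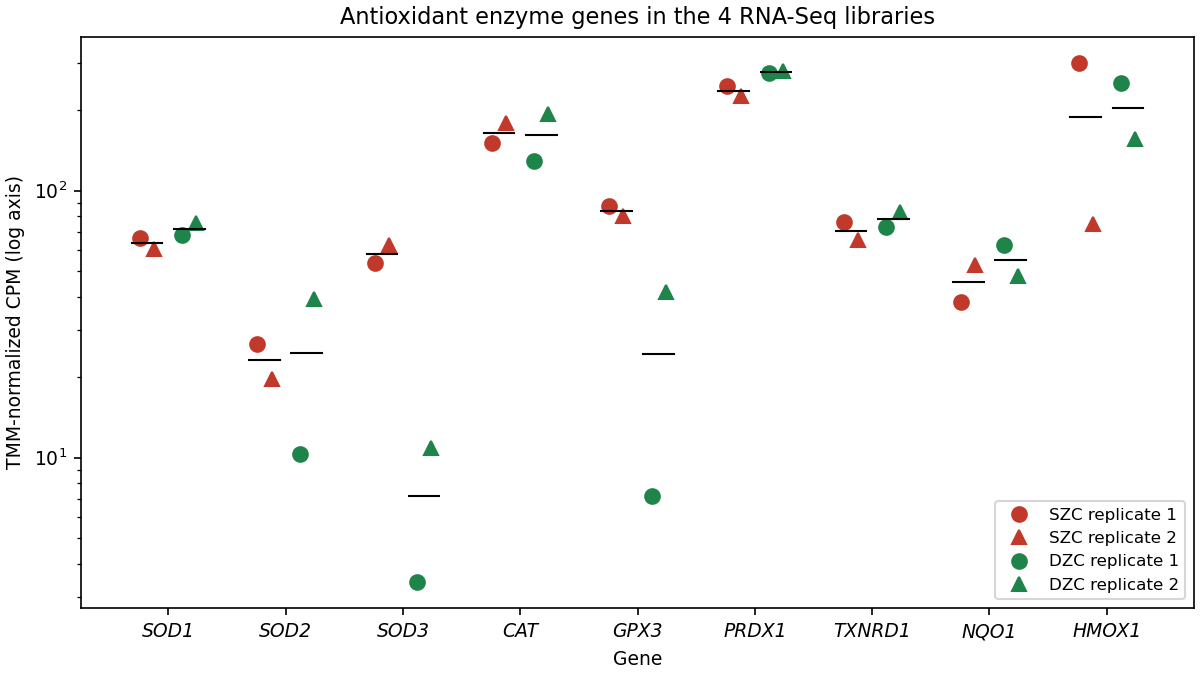
TMM-scaled CPM (log axis) of the 9 antioxidant enzyme genes, with a point for each of the 4 libraries and a bar at the mean of each zone. *SOD3* was at 53.5 and 62.4 CPM in SZCs and at 3.42 and 10.9 CPM in DZCs, while the zones lay close together for *SOD1* and *PRDX1*.

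*SOD3* (ENSBTAG00000013980) had 1177 counts in SZC replicate 1 and 1449 in SZC replicate 2, but 55 in DZC replicate 1 and 243 in DZC replicate 2. These counts correspond to 53.5 and 62.4 CPM in SZCs and to 3.42 and 10.9 CPM in DZCs. Both SZC libraries lay well above both DZC libraries. Averaged over 2 libraries, SZCs had 58.0 CPM with an SD of 6.33, whereas DZCs had 7.16 CPM with an SD of 5.28. Expressed as log2 of SZCs over DZCs, the difference was 3.01 ± 0.58 (SE; 95% interval 1.88 to 4.14; edgeR exact test, FDR 0.00018), which placed *SOD3* at rank 114 by fold change among the 287 genes called higher in SZCs. The call was made in 7 of 8 alternative analyses of the 4 libraries. The exception was edgeR's quasi-likelihood test, where the FDR was 0.217 and 0 of the 12857 genes (0%) were called, with 1126 genes at an unadjusted p below 0.05. With each library left out in turn, and the single library left in a zone assumed to vary like the others, the log2 fold change of *SOD3* lay between 2.42 and 4.10 and its FDR between 2.02e-23 and 0.0129 (edgeR's exact test).

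The DZC libraries differed from each other in *SOD3* by 3.18-fold, and the SZC libraries by 1.17-fold. The lower DZC value came from replicate 1, the library with the lowest summed fibroblast markers. Without DZC replicate 1 the log2 fold change was 2.42, and without DZC replicate 2 it was 4.10. The part of the chondrocyte, fibroblast, adipocyte, endothelial, mural, and hypertrophic cartilage and bone markers in the level of *SOD3* was not tested. Nor was that of the lower mitochondrial share and number of genes with counts in DZC replicate 1.

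*SOD1*, the copper-zinc dismutase of the cytosol, was at 66.6 and 60.4 CPM in SZC replicates 1 and 2, and at 68.1 and 75.7 CPM in DZC replicates 1 and 2. The DZC values lay slightly above the SZC values, without overlap. On the log2 scale the zones differed by -0.18 (95% interval -0.83 to 0.47, FDR 1 by edgeR's exact test), and by 0.11 with scaling by library totals. A zone difference of *SOD1* was thus not detectable here, and the interval, with TMM scaling, ends short of a 2-fold difference on either side.

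*SOD2*, the manganese dismutase of mitochondria, was at 26.6 CPM in SZC replicate 1, 19.7 CPM in SZC replicate 2, and 10.3 and 39.1 CPM in DZC replicates 1 and 2. The SZC values fell between the DZC values, which differed from each other by 3.81-fold. Between the zones the log2 difference was -0.09 (95% interval -1.38 to 1.19, FDR 1 by edgeR's exact test), so the data leave room for a difference of more than 2-fold in either direction. Its sign depended on the libraries: without DZC replicate 2 it was 1.19, and without DZC replicate 1 it was -0.75.

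A ratio of genes within a library does not depend on how libraries are scaled. The log2 ratio of *SOD3* to *SOD1* was -0.32 and 0.05 for SZCs, against -4.31 and -2.80 in DZC replicates 1 and 2. The mean ratio differed between the zones by 3.42, and the zones did not overlap, although an exact two-sided permutation test of 2 libraries against 2 cannot give a p below 0.333, the value found. Set against each of the other 8 enzymes, *SOD3* was higher in both SZC libraries than in either DZC library, by 0.97 on the log2 scale relative to *GPX3* and by up to 3.65 relative to *HMOX1*. The 8 ratios of *GPX3* did not overlap between the zones either. Relative to *SOD3* it was lower in SZCs (-0.97), and relative to the rest it was higher, by up to 2.68 for *HMOX1*. For *SOD2* relative to *SOD1*, the ratio was -1.33 and -1.61 in SZCs and -2.73 and -0.95 in DZCs, with overlapping zones (exact permutation p = 1).

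*GPX3* (ENSBTAG00000043553) had 1923 counts in SZC replicate 1 and 1858 in SZC replicate 2, but 115 in DZC replicate 1 and 933 in DZC replicate 2. Its levels were 87.4 and 80.1 CPM in SZCs and 7.15 and 41.8 CPM in DZCs. The SZC libraries were close to each other and above both DZC libraries, which lay 5.85-fold apart. That spread between the DZC libraries was larger than for 98.2% of all tested genes on the log2(CPM + 1) scale. *GPX3* differed between the zones by 1.77 ± 0.76 on the log2 scale (SE; 95% interval 0.27 to 3.27), and the exact test of edgeR gave an unadjusted p of 0.0268 but an adjusted p of 0.381. Its FDR lay between 0.0865 and 0.62 over the 8 alternative analyses of the 4 libraries. *GPX3* did pass when either DZC library was left out, with a log2 fold change of 1.01 without replicate 1 (FDR 0.0237) and of 3.56 without replicate 2 (FDR 1.85e-20, edgeR's exact test). In those fits the spread between replicates comes from the SZC pair alone, and 6.67% and 20.7% of all tested genes were called. As for *SOD3*, DZC replicate 1 was the lowest library for *GPX3*. It was also the lowest in fibroblast markers, in the markers of hypertrophic cartilage and bone, in mitochondrial share and in genes with counts, and *FABP4* was higher in SZCs. The part of these in the level of *GPX3* was not tested.

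**Figure D2:**
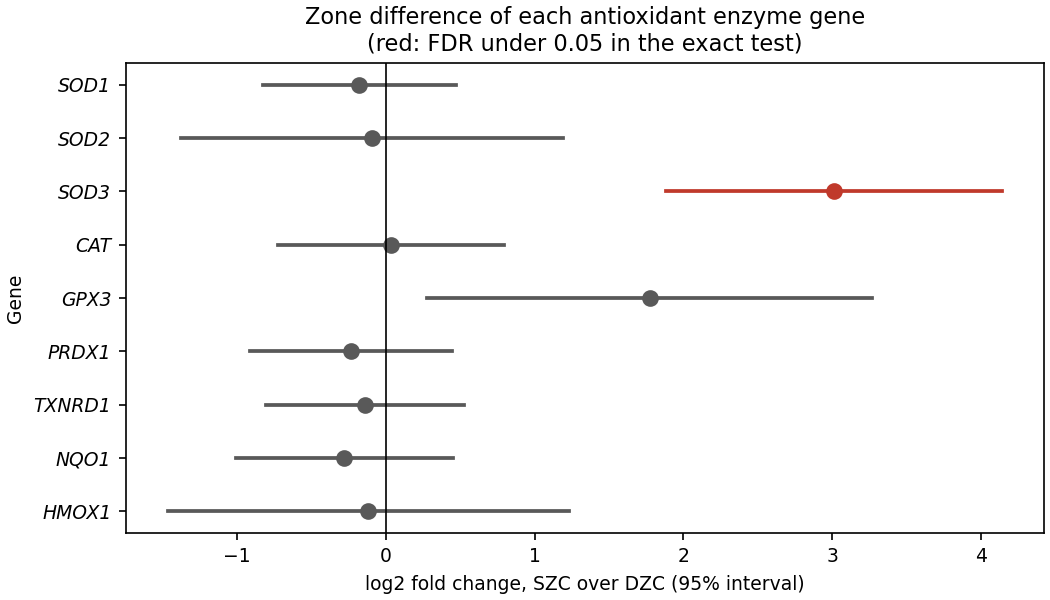
Log2 fold change of SZCs over DZCs for each of the 9 enzymes (points) with its 95% interval (lines). The interval of *SOD3*, 1.88 to 4.14, was the farthest from 0, and *GPX3* had an interval above 0 but an FDR of 0.381.

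*CAT* encodes catalase, the peroxide-removing enzyme of peroxisomes. It was at 151 and 179 CPM in SZC replicates 1 and 2 and at 129 and 193 CPM in DZC replicates 1 and 2. The zones overlapped, and the log2 fold change was 0.04 (95% interval -0.72 to 0.79, FDR 1 by edgeR's exact test). *PRDX1*, a cytosolic peroxiredoxin that reduces peroxide with electrons from thioredoxin, was at 245 and 226 CPM in SZCs and at 275 and 281 CPM in DZCs. Its DZC libraries differed by 1.02-fold, and both lay above the SZC libraries. *PRDX1* had a zone difference on the log2 scale of -0.24 (95% interval -0.92 to 0.45, FDR 0.998 by edgeR's exact test), which became 0.06 with scaling by library totals. *CAT* was at 0.29 with that scaling. For both genes the interval, which holds for TMM scaling and takes the estimated dispersion as known, ends short of a 2-fold difference.

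*TXNRD1*, the cytosolic thioredoxin reductase, was at 76.5 and 65.0 CPM in SZCs and at 72.9 and 83.3 CPM in DZCs. Its zones overlapped, with a log2 fold change of -0.14 (95% interval -0.81 to 0.52, FDR 1 by edgeR's exact test). *NQO1*, which reduces quinones without forming radicals, was at 38.3 and 52.5 CPM in SZCs and at 62.5 and 47.8 CPM in DZCs. Its zones overlapped as well, and the log2 fold change was -0.28 (95% interval -1.01 to 0.45, FDR 0.995 by the same edgeR test). Both genes are textbook targets of the factor NRF2. With scaling by library totals, their log2 fold changes were 0.14 and 0.06.

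*HMOX1*, the inducible heme oxygenase, varied most among the replicates of SZCs. It was counted 6627 times in SZC replicate 1 and 1732 times in SZC replicate 2, and its levels were 301 and 74.6 CPM there, against 252 and 156 CPM in DZC replicates 1 and 2. The DZC values fell between the SZC values. The SZC libraries differed by 4.03-fold, a spread larger than for 99.7% of all tested genes on the log2(CPM + 1) scale, although these libraries correlated with r = 0.98 across genes, which are not independent replicates. Averaged over the libraries, the zones differed by -0.12 on the log2 scale (95% interval -1.47 to 1.23, FDR 1 by edgeR's exact test). This difference was -1.46 without SZC replicate 1 and 0.56 without SZC replicate 2, so no direction can be given. The 8 immune markers summed to 20.6 CPM in SZC replicate 1 and 36.4 CPM in SZC replicate 2, and to 8.77 and 24.8 CPM in DZC replicates 1 and 2. From SZC replicate 1 to 2 the mural marker *ACTA2* rose from 11.5 to 93.2 CPM. The fibroblast marker *THY1* rose from 48.9 to 162 CPM, whereas the mural marker *CSPG4* fell from 2533 to 2011 CPM. The part of these markers in the level of *HMOX1* was not tested. The log2 ratio of *HMOX1* to *NQO1* was 2.98 and 0.51 in SZCs and 2.01 and 1.71 in DZCs, with overlapping zones (exact permutation p = 1).

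Across the 9 enzymes, 4 had zones that did not overlap, *SOD3* and *GPX3* with SZCs higher and *SOD1* and *PRDX1* with DZCs higher, against 41.5% of all tested genes (21% with SZCs higher and 20.5% with DZCs higher). The median log2 fold change of the 9 was -0.12, against -0.04 for all genes tested. It was -0.25 and -0.03 without SZC replicates 1 and 2, against -0.04 and -0.07 for all genes, and -0.22 and -0.03 without DZC replicates 1 and 2, against 0.01 and 0.06. Scaling by library totals alone moved the median of all genes by 0.30, and the signs of 6 enzymes (*SOD1*, *SOD2*, *NQO1*, *HMOX1*, *TXNRD1* and *PRDX1*) turned with it, while *SOD3* was then at 3.18 (exact test of edgeR, FDR 0.00845).

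**Figure D3:**
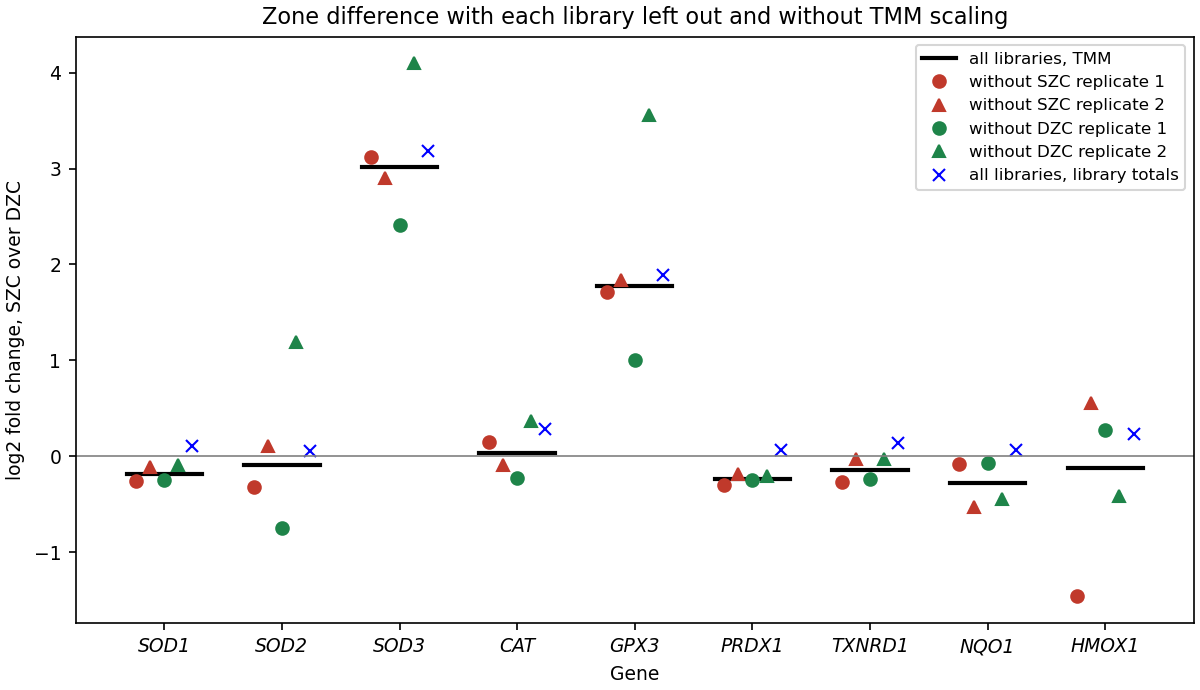
Log2 fold change of SZCs over DZCs for each enzyme with all libraries (black bars), with each library left out (points) and with scaling by library totals (crosses). *SOD3* stayed between 2.42 and 4.10 with a library left out, whereas *SOD2* moved between -0.75 and 1.19 and *HMOX1* between -1.46 and 0.56.

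The enzymes work with many partners, which were examined in 7 further lists. Together these hold 106 tested genes, each counted once, of which 2 passed the FDR threshold with SZCs higher and 1 with DZCs higher in edgeR's exact test, and 0 passed in its quasi-likelihood test. The share that passed in the exact test, 2.83%, was near the 2.93% of all genes. The 3 genes that passed were *AOX1*, *CP* and *GSTM3*. Without SZC replicate 1, 0 of 108 list genes passed, against 0.436% of all genes, and without SZC replicate 2, 1 of 106 passed (0.943%), against 1.13%. Without DZC replicate 1, 8 of 108 passed (7.41%), against 6.67% of all genes, and without DZC replicate 2, 29 of 108 passed (26.9%), against 20.7%.

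*AOX1*, an aldehyde oxidase that can release superoxide and peroxide, was at 64.5 and 88.8 CPM in SZCs and at 15.3 and 28.9 CPM in DZCs, without overlap. SZCs exceeded DZCs 3.46-fold, or by 1.79 ± 0.44 on the log2 scale (SE; edgeR exact test, FDR 0.0057). The log2 difference was 2.00 without SZC replicate 1 (FDR 0.187) and 1.54 without SZC replicate 2 (FDR 0.484), against 1.41 without DZC replicate 1 (FDR 0.00171) and 2.34 without DZC replicate 2 (FDR 3.47e-09) in the same edgeR test. It belongs to a list of oxidant sources, of which 6 of 17 genes in the table passed the filter. These 6 had log2 fold changes above 0, from 0.23 for *CYBB* to 1.79, as did 5987 of all 12857 genes tested, but the other 5 did not pass the test. A low gene can pass the filter through the zone where it is higher, and without the filter 10 of 15 genes were above 0 and 5 below, with a median of 0.38 against 1.03. With a library left out, 5 of 6 were above 0 without SZC replicate 2 and without DZC replicate 1, and the median was 0.62 without DZC replicate 1 and 1.93 without DZC replicate 2. *NOX4*, an NADPH oxidase, had 1 count in SZC replicate 2 and 0 in the other libraries. *CYBB* and *NOX4* were named after their values were seen.

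*CP* encodes ceruloplasmin, a secreted copper protein that oxidizes iron. Its levels were 74.8 and 102 CPM in SZCs and 32.2 and 35.3 CPM in DZCs. SZCs exceeded DZCs 2.61-fold, or by 1.39 ± 0.35 on the log2 scale (SE; edgeR exact test, FDR 0.00741). The log2 difference was 1.59 without SZC replicate 1 (FDR 0.452) and 1.15 without SZC replicate 2 (FDR 0.969), against 1.33 without DZC replicate 1 (FDR 0.00409) and 1.47 without DZC replicate 2 (FDR 0.000237) in the same edgeR test. In the list of heme, iron and metallothionein genes it was the only one of 14 tested to pass. *FTH1*, the ferritin heavy chain, was at 1704 and 1226 CPM in SZCs and at 2196 and 1802 CPM in DZCs, and did not pass (edgeR exact test, FDR 0.936). *HMOX2*, the constitutive heme oxygenase, was at 125 and 170 CPM in SZCs and at 428 and 189 CPM in DZCs (log2 difference -1.06; edgeR exact test, FDR 0.466). *FTH1* and *HMOX2* were named after their values were seen.

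*GSTM3*, a glutathione transferase, was the gene that passed in the other direction. Its levels were 22.9 and 52.5 CPM in SZCs and 297 and 131 CPM in DZCs. DZCs exceeded SZCs 5.67-fold, and the log2 difference of SZCs over DZCs was -2.50 ± 0.59 (SE; edgeR exact test, FDR 0.00439). Genes of this family are close copies of each other, and how the counting divided shared reads is not given in the sources used here, so the value is uncertain. Without SZC replicate 1 the log2 difference was -2.03 (FDR 0.612), and with each of the other libraries left out it lay between -3.23 and -1.79 and passed (FDR 3.58e-11 to 0.0171, edgeR exact test). The remaining 23 tested genes of glutathione synthesis and use did not pass. The median log2 fold change of the list was -0.30, against -0.04 for all genes, and with scaling by library totals it was 0.03, against 0.26. With a library left out it was -0.11 and -0.27 without SZC replicates 1 and 2, and 0.06 and 0.23 without DZC replicates 1 and 2.

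In the other 4 lists 0 genes passed in edgeR's exact test, in its quasi-likelihood test or in DESeq2, and 1 gene, *TXNIP*, passed when the exact test used library totals. Among 22 tested partners in peroxide and thiol chemistry, such as peroxiredoxins, glutaredoxins and thioredoxins, 1 gene had an unadjusted p below 0.05 in the exact test, against 1169 of all 12857 genes tested. This was *TXNIP*, which binds and inhibits thioredoxin, at 373 and 365 CPM in SZCs and 262 and 148 CPM in DZCs (log2 fold change 0.85, FDR 0.536 by edgeR's exact test, or 1.23 and 0.0402 with library totals). *GLRX*, a glutaredoxin, had the next largest value, 0.84 (FDR 0.827 by the same edgeR test). Peroxiredoxins *PRDX2* to *PRDX6*, named after their values were seen, had log2 fold changes between -0.46 and -0.10. The median of the 22 partners was -0.21, against -0.04 for all genes, and 0.15 with scaling by library totals, against 0.26. With a library left out it lay between -0.55 and 0.01. Among 23 tested NRF2 targets and NADPH-producing enzymes 1 had an unadjusted p below 0.05 in the exact test, again against 1169 of 12857, and the median log2 fold change was -0.35, and -0.02 with scaling by library totals, where that of all genes was 0.26. With a library left out, this median lay between -0.40 and -0.14, the latter without DZC replicate 1. The largest values there were 0.86 for *GCLC*, the catalytic subunit of glutathione synthesis (FDR 0.416 by edgeR's exact test), and -0.71 for *ME1*, which produces NADPH (FDR 0.678 by edgeR's exact test).

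Among 19 tested regulators 0 genes reached an unadjusted p below 0.05 in the exact test, which 1169 of all 12857 genes did. The largest log2 fold changes were 0.84 for *EPAS1*, a hypoxia-inducible factor, and -0.82 for *FOXO6*, a forkhead factor, with FDR values of 0.678 and 0.906 in edgeR's exact test. *NFE2L2*, which encodes NRF2, was named after its values were seen. It was at 133 and 136 CPM in SZCs and at 148 and 128 CPM in DZCs, with overlapping zones and a log2 fold change of -0.03 (95% interval -0.71 to 0.64, FDR 1 by edgeR's exact test). Of 7 tested genes of selenoprotein synthesis and selenoproteins, which bear on *GPX3* and *TXNRD1* because both enzymes contain selenocysteine, 0 reached an unadjusted p below 0.05, against the same 1169 of 12857. The largest values were -0.43 for *SELENOK* and -0.42 for *SELENOS* (FDR 0.979 and 0.968 by edgeR's exact test).

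**Figure D4:**
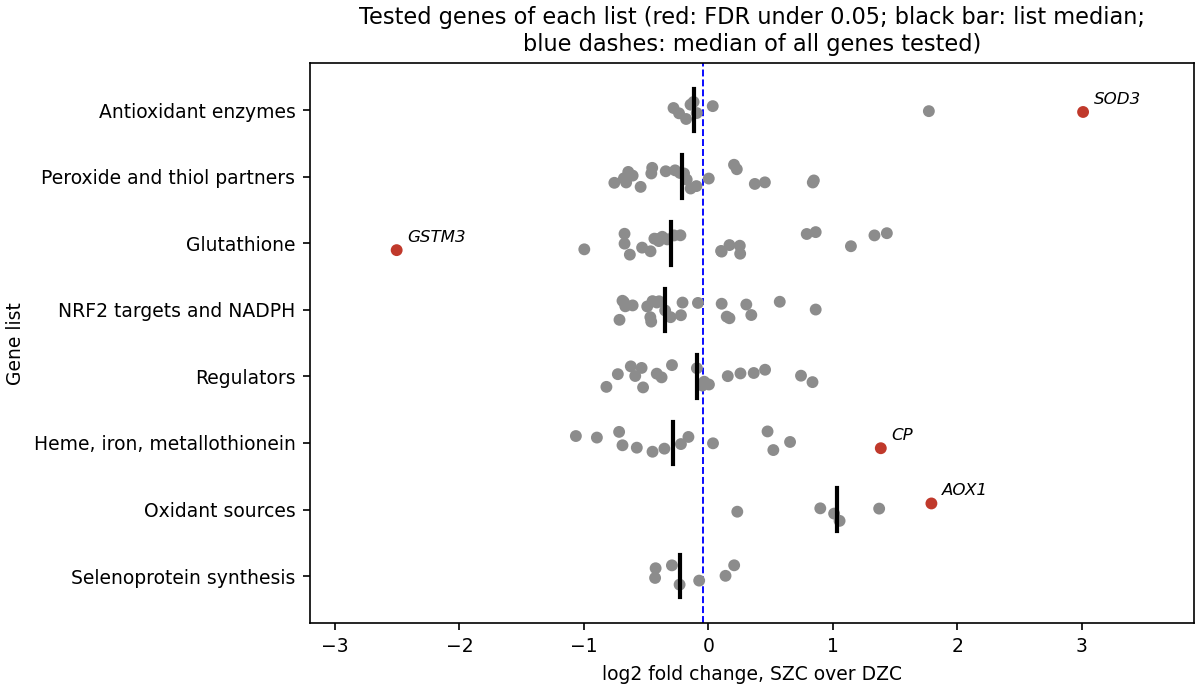
Log2 fold change of SZCs over DZCs for the tested genes of each list (points), with the list median (black bars) and the median of all genes tested (dashed line, -0.04). The genes with an FDR under 0.05 were *SOD3*, *AOX1*, *CP* and *GSTM3*.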

How the data were processed

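For the 4 RNA-Seq libraries, the authors used STAR 2.5.2b for alignment to bovine UMD 3.1, and what was deposited are raw counts of reads per gene, unstranded, for 24596 genes. A second table, with the authors' fold changes and FDR values, served here only for its gene names (8 of 6119 blank names were filled). The ATAC-Seq samples were not analysed here.

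The analysis used edgeR 4.0.16 and R 4.3.3. Genes with few counts were removed by the default filter of edgeR, a step added here. As in the study's methods, scaling was by TMM, and the zones were tested against each other by the two-sided exact test with Benjamini–Hochberg adjustment (threshold 0.05), here over the 12857 genes kept. Standard errors and 95% intervals follow from the negative binomial model with TMM scaling, at a gene-wise dispersion taken as known. The alternatives were the quasi-likelihood test, with and without the replicate number as a block, DESeq2 1.42.0, other filters, scalings and dispersions, and each library left out. The scripts were tested on simulated data.

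Library totals lay between 19918970 and 21890549 counts. The antioxidant enzymes and the gene lists were chosen with earlier results of these data known. All enzymes are named, with the genes of each further list past the threshold or, where none passed, the pair with the largest absolute log2 fold change. Genes named beyond this rule, such as *PRDX2* to *PRDX6*, were picked after their values were seen. Levels were not divided by transcript length, so they are not compared between genes.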

Additional observations from a re-analysis of the deposited data

How the results depend on the processing

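With 2 libraries per zone, edgeR's quasi-likelihood test called 0 genes (0 higher in SZCs and 0 higher in DZCs), 0 of the enzymes and 0 genes of the other lists, with 1126 genes and 1 enzyme at an unadjusted p below 0.05, and gave *SOD3* a log2 fold change of 3.01 (FDR 0.217). Scaling by library totals alone called 44 genes higher in DZCs, against 90, and turned *SOD1* to 0.11, *SOD2* to 0.0552, *NQO1* to 0.0632, *HMOX1* to 0.24, *TXNRD1* to 0.14 and *PRDX1* to 0.0638. With a library left out, the number of genes called lay between 58 and 2725 (52 to 1607 higher in SZCs, 6 to 1118 higher in DZCs), that of enzymes between 1 and 3 and that of genes in the other lists between 0 and 29. Without a DZC library the spread is estimated from the SZC pair alone. Over the 4 fits with a library of either zone left out, the log2 fold change ranged from -0.75 to 1.19 for *SOD2*, from -0.22 to 0.37 for *CAT* and from -1.46 to 0.56 for *HMOX1*, and the zone difference of log2 ratios from -0.52 to 1.26 for *SOD2* over *SOD1* and from -1.35 to 1.12 for *HMOX1* over *NQO1*. In all, 92 of 108 alternative values of the enzymes kept their direction and their side of the threshold. The ratio of *GPX3* to *GPX1* could not be computed.

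The sources used here do not tie the replicate numbers to joints. Superficial and deep slices were cut from the same cores and pooled by joint, so same-numbered libraries may share a joint. Their deviations from the zone means correlated with r = 0.42 across genes. Pairing the libraries the other way gives the same r with its sign turned. The value therefore cannot tell a shared joint from another trait shared by replicate number. With the replicate number as a block, edgeR's quasi-likelihood test called 347 genes, 277 of them also called without the block by the exact test. *SOD3* was again the enzyme that passed (log2 fold change 3.20, FDR 0.00572), *GPX3* had an FDR of 0.0865, and *SOD2* turned to 0.17.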

Other observations

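*XDH*, which encodes xanthine dehydrogenase, a source of superoxide and of urate, was singled out after its values were seen. Its counts were 515 in SZC replicate 1 and 560 in SZC replicate 2, but 40 in DZC replicate 1 and 454 in DZC replicate 2. Its levels were 23.4 and 24.1 CPM in SZCs and 2.49 and 20.3 CPM in DZCs, so that DZC replicate 1 stood apart from the other 3 libraries. The log2 fold change of SZCs over DZCs was 1.05 (FDR 0.918 by edgeR's exact test). As in *GPX3* and *SOD2*, the spread between the DZC libraries was among the widest of all tested genes, larger than for 98.7% of them on the log2(CPM + 1) scale. *HIF1A*, the main hypoxia-inducible factor of cartilage, was singled out in the same way. It was at 938 and 1064 CPM in SZCs and at 1720 and 1593 CPM in DZCs, without overlap, and its log2 fold change was -0.73 (95% interval -1.47 to 0.01, FDR 0.581 by edgeR's exact test).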
